A study of Mus musculus with 62 samples.

Results

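Oligodendrocytes are the glia that wrap axons of the central nervous system in myelin, and 29 genes of these cells were followed here through every sample of a study of Nova1 deletion. They were chosen by symbol, as genes known for myelin or for the oligodendrocyte lineage, and all 29 were found among the 23038 genes of the deposited tables. Nova1 encodes a neuronal RNA-binding protein. The conditional knockout (cKO) mice lack Nova1 in inhibitory neurons, and the names of the TRAP tables hold Gad2, a gene of inhibitory neurons that encodes an enzyme of GABA synthesis. In the cKO mice the deletion was thus directed to neurons, while the genes followed here were chosen as genes of the oligodendrocyte lineage. Some of them, such as Car2 and Enpp2, are also made by other cells, and which cells held the transcripts was not tested. Mice labelled cHet were the controls, and all mice had a BL6 background. At postnatal day 21 (P21), 4 brain regions were taken, the hypothalamus, the periaqueductal gray, the caudate putamen and the substantia nigra (4 cKO and 4 cHet libraries each) and the pituitary gland (3 cKO and 3 cHet libraries, male per the tables' names). Translating ribosome affinity purification (TRAP), which isolates mRNA on the tagged ribosomes of chosen cells, was applied to whole brains at P0 (6 cKO and 6 cHet libraries). Cultures of neurons of the ventral diencephalon/mesencephalon, made at e13.5, received lentivirus on day 7 and gave RNA on day 14 in vitro. The viruses carried eGFP with Cre and Impact (Nova1 KO + Impact), eGFP with Cre (Nova1 KO) or eGFP alone (WT), with 4 libraries each. Impact is named in the series' design as a target of Nova1.

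Progenitors of the lineage carry the growth factor receptor PDGFRA and the proteoglycan encoded by Cspg4. As they mature, transcription factors such as SOX10, OLIG1, OLIG2 and NKX6-2 are active in them, and the cells make large amounts of a small set of membrane proteins, lipids and enzymes from which the sheath is built. In mice, myelination of the brain is in progress in the third postnatal week. The midbrain and the large fibre tracts near the substantia nigra are rich in myelin, while the brain of a newborn mouse holds little.

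Levels are given as scaled CPM, which is tags per M tags after 1 scaling (trimmed mean of M values) over all 62 libraries, and as RPKM where genes are set beside each other. "Rose" and "fell" are used of genes with an adjusted p under 0.05 in edgeR's quasi-likelihood test, adjusted by Benjamini-Hochberg over all genes tested in a comparison. Libraries held 15.4 to 24.3 M tags in the brain regions, 2.24 to 3.10 M in pituitary, 7.38 to 25.4 M in TRAP and 20.95 to 29.5 M in primary neurons. Nova1 itself fell in hypothalamus, caudate putamen, substantia nigra, TRAP and both sets of Cre-treated neurons. In periaqueductal gray it stood at 99.5 to 168 scaled CPM in cKO libraries and 166 to 199 in cHet libraries (adjusted p = 0.114), and in pituitary at 4.39 to 7.05 in cKO and 9.09 to 11.4 in cHet (adjusted p = 0.761). The library caudate putamen cKO 1 has a title that names the periaqueductal gray and a tissue tag that names the caudate putamen, and the tag was used. The labels do not say that libraries of a group came from separate animals, so p-values measure the spread between these libraries.

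Promoter windows of 5 of the genes are printed because they stand for both outcomes in the cKO brain: Mobp, Ermn and Ugt8a fell in 3 or 4 regions, and Mog and Opalin in 0. Each window runs 5′ to 3′ on the gene's own strand, with 250 bases before and 50 bases after the start site, in RefSeq's annotation of GRCm38.p6. Capitals mark matches, on either strand, to ACAAAG and ACAATG (cores bound by SOX proteins), CAGCTG (an E-box) and CTGGCAC and CTGGTAC (cores of the motif of the oligodendrocyte factor MYRF). No matches overlapped in these windows.
Mobp (chr9:120149492-120149791, plus strand): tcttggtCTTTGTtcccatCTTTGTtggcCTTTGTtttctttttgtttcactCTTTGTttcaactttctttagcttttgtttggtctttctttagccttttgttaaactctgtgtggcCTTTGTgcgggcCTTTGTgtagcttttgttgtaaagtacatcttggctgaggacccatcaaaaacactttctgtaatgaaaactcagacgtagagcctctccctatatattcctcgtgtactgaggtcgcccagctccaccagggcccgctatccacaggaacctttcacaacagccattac
Ermn (chr2:58052815-58053114, minus strand): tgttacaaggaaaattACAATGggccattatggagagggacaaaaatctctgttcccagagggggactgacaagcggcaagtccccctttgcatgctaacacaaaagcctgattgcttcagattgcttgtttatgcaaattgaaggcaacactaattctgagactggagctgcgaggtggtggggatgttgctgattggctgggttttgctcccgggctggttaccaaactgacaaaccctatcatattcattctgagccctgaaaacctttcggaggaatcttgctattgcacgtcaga
Ugt8a (chr3:125938603-125938902, minus strand): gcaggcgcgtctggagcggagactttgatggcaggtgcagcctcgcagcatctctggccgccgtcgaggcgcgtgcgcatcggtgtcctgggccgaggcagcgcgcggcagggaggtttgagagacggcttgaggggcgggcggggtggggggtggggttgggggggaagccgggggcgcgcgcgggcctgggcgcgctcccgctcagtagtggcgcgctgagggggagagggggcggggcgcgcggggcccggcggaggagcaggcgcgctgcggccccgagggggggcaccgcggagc
Mog (chr17:37023349-37023648, minus strand): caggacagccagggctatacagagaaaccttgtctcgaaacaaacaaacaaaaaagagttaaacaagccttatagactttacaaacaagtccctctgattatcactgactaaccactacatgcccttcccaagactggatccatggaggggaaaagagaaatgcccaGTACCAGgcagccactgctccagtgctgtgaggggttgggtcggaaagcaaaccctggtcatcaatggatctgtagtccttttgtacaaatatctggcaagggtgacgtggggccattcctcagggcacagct
Opalin (chr19:41077064-41077363, minus strand): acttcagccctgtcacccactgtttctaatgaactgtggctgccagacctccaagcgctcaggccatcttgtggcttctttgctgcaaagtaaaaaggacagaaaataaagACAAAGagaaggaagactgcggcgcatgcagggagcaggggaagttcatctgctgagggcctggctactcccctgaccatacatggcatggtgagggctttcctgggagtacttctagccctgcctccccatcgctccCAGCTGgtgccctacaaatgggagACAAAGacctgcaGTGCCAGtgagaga

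The Mobp window held 6 matches to ACAAAG, all on the strand opposite to the gene. It was the 1 window of the 32851 in the table with that many (0.00304%). Ermn had a single ACAATG, Mog a single CTGGTAC, and Opalin had ACAAAG at 2 places and CAGCTG and CTGGCAC at 1 place each. Ugt8a had no match to these letters. Of all promoter windows, 18.7% held ACAAAG, 12.6% ACAATG, 16.3% CAGCTG, 5.01% CTGGCAC and 2.24% CTGGTAC. RefSeq's table had 30 windows for 21 of the 29 genes. Of these windows, 9 held ACAAAG, 4 ACAATG, 3 CAGCTG, 4 CTGGCAC and 1 CTGGTAC. Counted by gene, with a match in any window, 7 held ACAAAG, 4 ACAATG, 3 CAGCTG, 3 CTGGCAC and 1 CTGGTAC. Matches of letters stood on both sides of the outcome, and they are given as a description.

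Among the cHet libraries of the 4 brain regions, those of the substantia nigra had the highest mean level of each of the 29 genes. Summed over the genes, substantia nigra cHet libraries held between 33627 and 45010 scaled CPM, periaqueductal gray between 18005 and 21198, caudate putamen between 14051 and 16838 and hypothalamus between 11038 and 12979. Mbp, the gene of myelin basic protein that compacts the sheath, took 39.6 to 43.6% of this sum in the cHet libraries of the 4 regions. All 29 genes were higher in cHet substantia nigra than in cHet periaqueductal gray (29.5% of all genes were higher), with log2 differences between 0.54 and 1.30. All 29 were also higher there than in cHet hypothalamus (30.7% of all genes) by 0.33 to 2.05, and than in cHet caudate putamen (34.1%) by 0.54 to 1.75.

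The next places in the order were less uniform. In cHet periaqueductal gray 26 genes were higher than in cHet hypothalamus (13.2% of all genes), and Pdgfra was lower (13.4% of all genes were lower) with a log2 difference of -0.21. Cspg4 and Nkx6-2 did not pass the test there. Against cHet caudate putamen, 24 were higher in cHet periaqueductal gray (30.1% of all genes), while Mobp, Mal, Ermn, Ppp1r14a and Pdgfra did not pass. Between cHet hypothalamus and cHet caudate putamen, 17 genes were lower in hypothalamus (28.6% of all genes), 1, Pdgfra, was higher (28.1%) and 11 did not pass. Pdgfra averaged 154 ± 11.1 scaled CPM in cHet substantia nigra, 103 ± 6.68 in cHet periaqueductal gray, 102 ± 6.12 in cHet caudate putamen and 118 ± 3.86 in cHet hypothalamus (SD, n = 4 each).

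Per length of transcript, Mbp led in cHet substantia nigra with 2674 ± 331 RPKM (SD, n = 4). Trf followed with 1054 ± 142 RPKM, Cnp with 914 ± 100 RPKM and Mobp with 787 ± 104 RPKM. Mbp stood far above the next gene, while Trf and Cnp, and Cnp and Mobp, differed by about their SDs. The transcription factors were lower, with Olig1 at 141 ± 12.1 RPKM, Sox10 at 65.1 ± 4.39 RPKM, Olig2 at 27.7 ± 3.88 RPKM and Nkx6-2 at 16.6 ± 0.581 RPKM. Pdgfra had 17.9 ± 0.742 RPKM and Cspg4, the lowest of the 29, had 6.0 ± 0.50 RPKM.

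**Figure D1:**
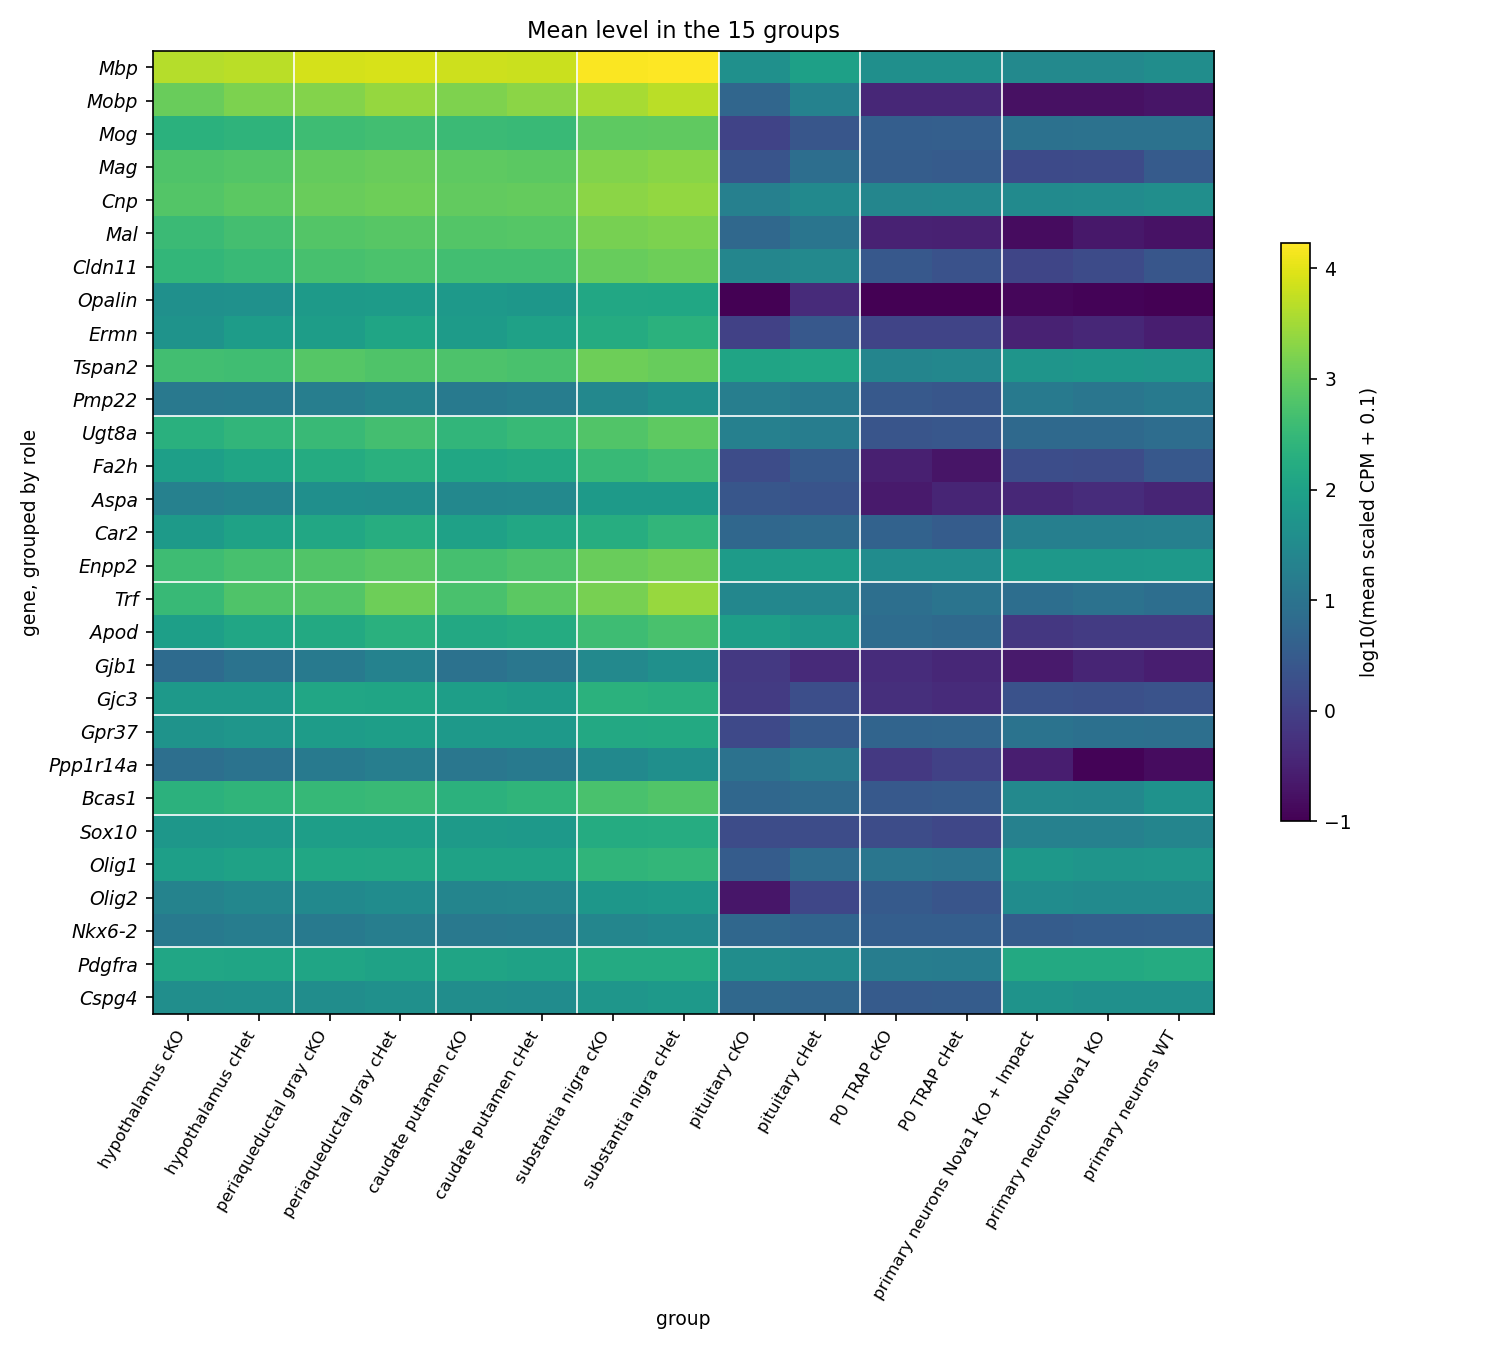
Mean level of each of the 29 genes (rows, grouped by role) in the 15 groups of libraries (columns), as log10 of the mean scaled CPM + 0.1. Substantia nigra is the brightest pair of columns among the 4 brain regions, and Mobp, Mal and Opalin are near the bottom of the scale in TRAP and primary neurons, where Pdgfra reaches a mean of 166 scaled CPM in WT neurons.

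In the cKO brain, a part of the myelin genes was lower than in cHet. In hypothalamus, 13 of the 29 genes fell and 0 rose (6.42% of all genes fell and 5.57% rose). In periaqueductal gray, 9 fell and 0 rose (5.39% of all genes fell and 4.33% rose). In caudate putamen, 5 fell and 1 rose (5.06% of all genes fell and 5.32% rose). In substantia nigra, 9 fell and 0 rose (5.46% of all genes fell and 4.35% rose). The 29 genes had a median log2 fold change of -0.23 in hypothalamus, against -0.15 in periaqueductal gray, -0.18 in substantia nigra and -0.06 in caudate putamen, beside medians of all genes tested that round to 0.00 in each region. Trf, Mobp, Ugt8a, Car2 and Enpp2 fell in all 4 regions, which 1.27% of the genes tested in all 4 did. Ermn, Gjb1 and Apod fell in 3 (3.21% of genes fell in 3 or more). Fa2h fell in 2, and Cnp, Mal, Cldn11, Bcas1 and Pmp22 in 1. The other 15 fell in 0 regions, and 1 of these, Pdgfra, rose in caudate putamen. In all 4 regions, 18 of the 29 had a log2 fold change below 0 (25.3% of genes did) and 2, Tspan2 and Pdgfra, had one above 0. Groups lay wholly apart, with cKO lower, for 9 of the 29 genes in hypothalamus (8.64% of genes tested), 4 in periaqueductal gray (8.56%), 2 in caudate putamen (8.78%, with Pdgfra wholly higher, beside 7.55%) and 9 in substantia nigra (9.01%). In bulk tissue, fewer cells of a type and less RNA per cell cannot be told apart.

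The numbers of genes that fell depended on single libraries. Without cHet 2 of periaqueductal gray, 5 fell. In caudate putamen, 3 fell when cKO 1 or cHet 2 was left out and 2 when cKO 2, cHet 3 or cHet 4 was, with 0 that rose in each case. In substantia nigra, 3 fell when cKO 1 or cKO 2 was left out and 5 when cHet 4 was. In hypothalamus the number stayed between 9 and 16. The shares of all genes that fell in these reduced fits are not given.

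**Figure D2:**
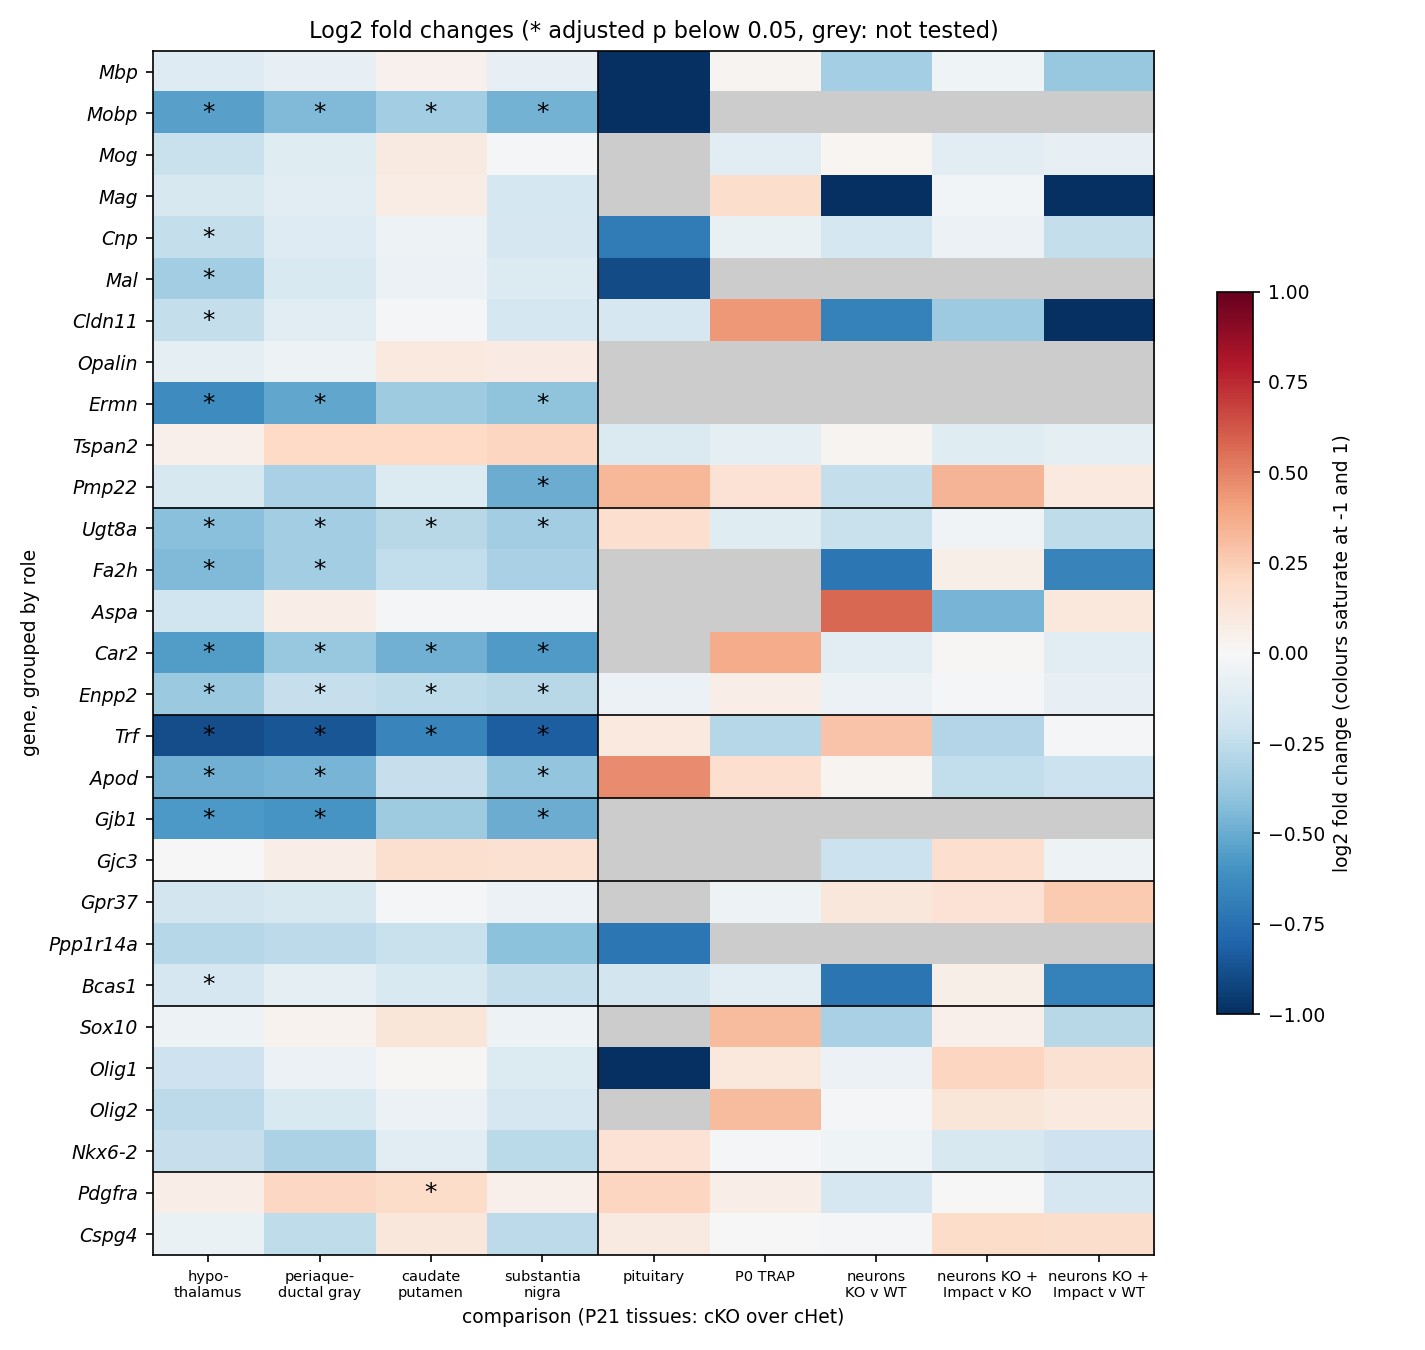
Log2 fold changes of the 29 genes (rows, grouped by role) in 9 comparisons (columns). The 4 brain regions are at the left with cKO over cHet, an asterisk marks an adjusted p below 0.05, grey fields were not tested, and the colours saturate at -1 and 1. Trf carries the deepest colour of the called fields in each brain region, while Mbp, Mog, Mag and Opalin carry no asterisk.

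Trf, the gene of the iron carrier transferrin, which oligodendrocytes make in the brain, had the lowest adjusted p of the 29 in each region. In hypothalamus it had 266, 286, 338 and 427 scaled CPM in cKO libraries, against 604, 522, 701 and 614 in cHet libraries. In periaqueductal gray it had 577, 632, 654 and 790 in cKO, against 1133, 1211, 1264 and 1211 in cHet. All cKO libraries were below all cHet libraries in both regions. The log2 fold changes were -0.89 ± 0.11 in hypothalamus (SE, adjusted p = 8.21e-05) and -0.85 ± 0.07 in periaqueductal gray (adjusted p = 7.19e-06), falls of 45.9% and 44.7%. In caudate putamen Trf had 431, 439, 622 and 591 scaled CPM in cKO, against 749, 756, 919 and 885 in cHet. In substantia nigra it had 1248, 1334, 1686 and 1552 in cKO, against 2425, 2146, 2852 and 2988 in cHet. The genotypes did not overlap here either, with log2 fold changes of -0.66 ± 0.10 (adjusted p = 0.00145) and -0.83 ± 0.11 (adjusted p = 0.000604). No alternative ended any of these 4 calls.

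Apod, the gene of the lipid carrier apolipoprotein D, is the other secreted carrier among the genes. In hypothalamus it had 93.5, 75.0, 82.2 and 98.7 scaled CPM in cKO, against 125, 125, 122 and 118 in cHet. Periaqueductal gray libraries had 129, 149, 152 and 162 in cKO, against 195, 222, 204 and 200 in cHet. It fell in both without overlap, by 0.48 on the log2 scale (SE 0.07, adjusted p = 0.000354) and by 0.46 (SE 0.07, adjusted p = 0.00109). Substantia nigra libraries had 367, 376, 444 and 384 in cKO, against 461, 479, 523 and 616 in cHet, again without overlap (log2 fold change -0.39 ± 0.09, adjusted p = 0.0157). In caudate putamen it had 120, 131, 150 and 157 in cKO, against 141, 172, 166 and 180 in cHet, and the ranges overlapped (log2 fold change -0.23 ± 0.09, adjusted p = 0.101). The substantia nigra call was lost without cKO 1 or cKO 2 (adjusted p up to 0.0533), and in caudate putamen Apod passed without cHet 1 or cKO 4.

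**Figure D3:**
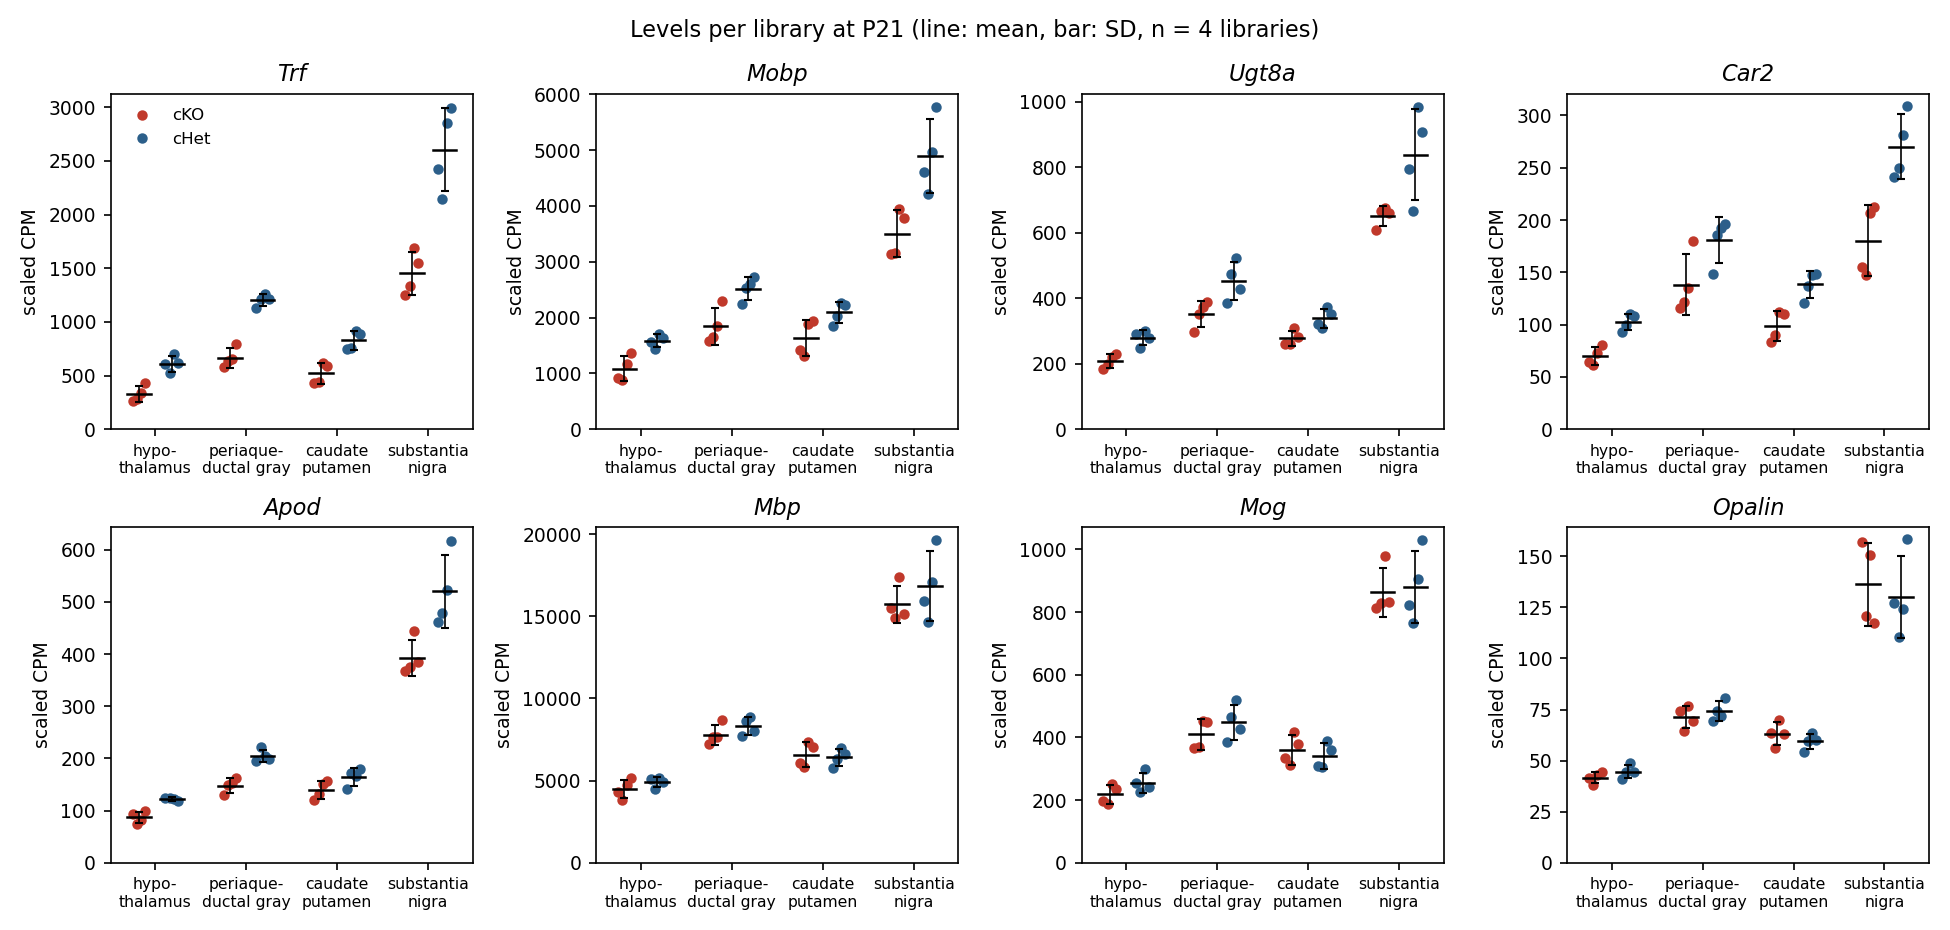
Scaled CPM of 8 genes in each brain region library at P21, cKO left of cHet in each region, with 4 libraries per group, the mean as a line and the SD as a bar, on axes that start at 0. Trf separates the genotypes in all 4 regions (266 to 427 in cKO against 522 to 701 in cHet in hypothalamus), while Mbp, Mog and Opalin overlap in each.

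Of the 11 genes of sheath proteins, 5 fell in hypothalamus (6.42% of all genes fell) and 3 in substantia nigra (5.46%). In periaqueductal gray 2 fell (5.39%), in caudate putamen 1 (5.06%), and 0 of the 11 rose in any region. Mobp, the gene of a small basic protein abundant in central myelin, was the one that fell in all 4. In hypothalamus it had 920, 889, 1171 and 1363 scaled CPM in cKO, against 1557, 1432, 1715 and 1641 in cHet. In periaqueductal gray it had 1573, 1650, 1854 and 2302 in cKO, against 2237, 2523, 2603 and 2721 in cHet. The genotypes were apart in hypothalamus, and in periaqueductal gray cKO 4 reached into the cHet range. The log2 fold changes were -0.54 ± 0.10 (SE, adjusted p = 0.00163) and -0.44 ± 0.09 (adjusted p = 0.00555). In caudate putamen Mobp had 1425, 1307, 1877 and 1934 in cKO, against 1858, 2038, 2266 and 2232 in cHet. In substantia nigra it had 3133, 3150, 3948 and 3778 in cKO, against 4615, 4220, 4964 and 5770 in cHet. The groups overlapped in caudate putamen and were apart in substantia nigra, with log2 fold changes of -0.35 ± 0.10 (adjusted p = 0.0371) and -0.47 ± 0.10 (adjusted p = 0.0102). In each region the cKO 1 and cKO 2 libraries had less Mobp than cKO 3 and cKO 4. The caudate putamen call was lost without cKO 1, cKO 2, cHet 2, cHet 3 or cHet 4 and with DESeq2 (adjusted p up to 0.109).

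Ermn, the gene of ermin, a cytoskeletal protein of late oligodendrocytes, fell in 3 regions. It had 39.5, 38.8, 56.2 and 63.0 scaled CPM in hypothalamus of cKO, against 73.1, 69.4, 84.3 and 77.9 in cHet, and all cKO libraries were lower (log2 fold change -0.63 ± 0.12, adjusted p = 0.0026). Periaqueductal gray libraries had 67.7, 67.8, 91.3 and 103 in cKO, against 102, 125, 123 and 125 in cHet, where cKO 4 and cHet 1 met (log2 fold change -0.52 ± 0.11, adjusted p = 0.00844). Substantia nigra libraries had 137, 142, 186 and 195 in cKO, against 197, 183, 244 and 254 in cHet. Here cHet 2 lay among the cKO libraries (log2 fold change -0.40 ± 0.12, adjusted p = 0.0487). That call was lost without cKO 1, cHet 1, cKO 2, cHet 3 or cHet 4 and with library totals alone (adjusted p up to 0.151). In caudate putamen it had 60.6, 58.2, 89.0 and 90.9 in cKO, against 87.4, 87.9, 105 and 104 in cHet, with overlap (log2 fold change -0.36 ± 0.12, adjusted p = 0.0749), and it passed there without cKO 3 or cKO 4 and without the low-count filter.

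Mbp, by far the most abundant of the genes, did not pass the test in any region. It had 4296, 3830, 4706 and 5132 scaled CPM in hypothalamus of cKO, against 5122, 4497, 5134 and 4898 in cHet (log2 fold change -0.13 ± 0.07, adjusted p = 0.223). In substantia nigra it had 15488, 14913, 17382 and 15120 in cKO, against 15953, 14639, 17098 and 19637 in cHet (log2 fold change -0.09 ± 0.09, adjusted p = 0.579). The cKO and cHet libraries overlapped in all 4 regions. Without hypothalamus cKO 4, Mbp passed there (adjusted p = 0.0417).

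Mog and Mag encode surface glycoproteins of the sheath, and Opalin a sialylated membrane protein of oligodendrocytes. Their log2 fold changes lay between -0.23 and 0.09 for Mog, -0.17 and 0.07 for Mag, and -0.09 and 0.10 for Opalin, with adjusted p of 0.0705 or more. In hypothalamus Mog passed without cKO 3 and Mag without cKO 4. Cnp, Mal and Cldn11, genes of an enzyme of non-compact myelin, a lipid raft protein and the claudin of myelin tight junctions, fell in hypothalamus alone, by 0.24, 0.35 and 0.24 on the log2 scale (adjusted p = 0.0181, 0.0125 and 0.0204). The Cnp call was lost without cKO 1, cHet 1, cKO 2 or cHet 3 (adjusted p up to 0.0644), the Cldn11 call without those or cHet 4 (up to 0.0747), and the Mal call with DESeq2 (0.0589). Whether these genes differ between regions in their change is given with the interaction test below.

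Pmp22, the gene of a protein best known from peripheral myelin, fell in substantia nigra (log2 fold change -0.50 ± 0.14, adjusted p = 0.0366), with 25.3 to 29.5 scaled CPM in cKO and 31.2 to 52.8 in cHet. That call was lost without any 1 of the 4 cKO libraries, cHet 2 or cHet 4 (adjusted p up to 0.101). Tspan2, the gene of a tetraspanin of the sheath, was above 0 in all 4 regions, with log2 fold changes of 0.05 in hypothalamus, 0.20 in periaqueductal gray and caudate putamen, and 0.22 in substantia nigra, and did not pass in any (adjusted p of 0.101 to 0.635). It passed in periaqueductal gray without cHet 3.

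Of the 5 genes of myelin lipid and other enzymes, 4 fell in hypothalamus (6.42% of all genes fell) and 3 in substantia nigra (5.46%). In periaqueductal gray 4 fell (5.39%) and in caudate putamen 3 (5.06%). Ugt8a encodes the transferase that makes galactosylceramide, the typical lipid of myelin. It had 183, 200, 221 and 231 scaled CPM in hypothalamus of cKO, against 291, 248, 300 and 277 in cHet, and 298, 353, 373 and 389 in periaqueductal gray of cKO, against 386, 475, 523 and 429 in cHet. The ranges were apart in hypothalamus and overlapped in periaqueductal gray, with log2 fold changes of -0.42 ± 0.07 (adjusted p = 0.000894) and -0.35 ± 0.09 (adjusted p = 0.0159). In caudate putamen it had 260, 260, 310 and 281 in cKO, against 321, 310, 373 and 352 in cHet. Substantia nigra libraries had 608, 667, 674 and 661 in cKO, against 794, 667, 985 and 908 in cHet. The lowest cHet library lay among the cKO libraries in each of these regions (log2 fold changes -0.28 ± 0.07, adjusted p = 0.0171, and -0.35 ± 0.09, adjusted p = 0.0295). Calls were lost in periaqueductal gray without cHet 2 (adjusted p = 0.057), in caudate putamen without cKO 2, cHet 3 or cHet 4 (up to 0.0607) and in substantia nigra without cKO 1, cHet 1, cKO 2, cHet 3 or cHet 4 (up to 0.0868).

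Car2 encodes carbonic anhydrase II, which oligodendrocytes share with a few other cell types. It had 63.9, 61.8, 72.4 and 80.7 scaled CPM in hypothalamus of cKO, against 92.9, 99.5, 110 and 108 in cHet. In caudate putamen it had 83.2, 90.5, 112 and 110 in cKO, against 121, 137, 148 and 148 in cHet. In substantia nigra it had 155, 147, 207 and 212 in cKO, against 241, 250, 281 and 309 in cHet. The genotypes did not overlap in these 3 regions, and the log2 fold changes were -0.56 ± 0.08 (adjusted p = 0.000272), -0.48 ± 0.09 (adjusted p = 0.00407) and -0.57 ± 0.11 (adjusted p = 0.00787). In periaqueductal gray it had 116, 121, 135 and 180 in cKO, against 149, 186, 193 and 196 in cHet, with cKO 4 in the cHet range (log2 fold change -0.38 ± 0.11, adjusted p = 0.0387). That call was lost with DESeq2 and without cKO 1, cKO 2, cKO 3, cHet 2, cHet 3 or cHet 4 (highest adjusted p 0.136).

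Enpp2 encodes autotaxin, an enzyme that makes lysophosphatidic acid and is also strong in choroid plexus. It had 353, 366, 409 and 457 scaled CPM in hypothalamus of cKO, against 521, 472, 563 and 502 in cHet, and 607, 635, 646 and 738 in periaqueductal gray of cKO, against 716, 739, 870 and 779 in cHet. The log2 fold changes were -0.37 ± 0.07 (adjusted p = 0.00229), without overlap, and -0.23 ± 0.07 (adjusted p = 0.032), with overlap of cKO 4 and cHet 1. In caudate putamen it had 454, 435, 551 and 528 in cKO, against 542, 572, 638 and 603 in cHet. Substantia nigra libraries had 999, 1061, 1085 and 1124 in cKO, against 1222, 1123, 1490 and 1396 in cHet. The ranges overlapped in both (log2 fold changes -0.25 ± 0.07, adjusted p = 0.0359, and -0.28 ± 0.08, adjusted p = 0.037). These 3 calls were lost without most single libraries: in periaqueductal gray without any but cHet 1 or cKO 4 (adjusted p up to 0.109), in caudate putamen without cKO 1, cKO 2, cHet 2, cHet 3 or cHet 4 (up to 0.111), and in substantia nigra without any but cHet 2 or cKO 4 (up to 0.103). The 10 markers of choroid plexus and ependyma summed to 53.4 to 61.4 scaled CPM in cKO hypothalamus and 55.3 to 66.7 in cHet, and 0 of the 9 tested there fell.

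Fa2h, the gene of the hydroxylase that makes the hydroxylated fatty acids of myelin lipids, fell in hypothalamus (log2 fold change -0.44 ± 0.09, adjusted p = 0.00426) and periaqueductal gray (-0.35 ± 0.10, adjusted p = 0.0369). The second call was lost without cKO 1, cKO 2, cHet 2, cHet 3 or cHet 4 (highest adjusted p 0.112). In caudate putamen and substantia nigra its log2 fold changes were -0.25 (adjusted p = 0.122) and -0.32 (adjusted p = 0.0739), and it passed without cKO 3 in either, and in substantia nigra also without cHet 2, with DESeq2 and without the low-count filter. Aspa, the gene of aspartoacylase, which frees acetate from N-acetylaspartate in oligodendrocytes, had log2 fold changes between -0.20 and 0.07 and passed in no region.

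Both connexins of oligodendrocytes were measured, and their values went apart. Gjb1, the gene of connexin 32, had 5.68, 4.93, 7.33 and 8.08 scaled CPM in hypothalamus of cKO, against 9.86, 7.86, 11.1 and 9.84 in cHet. Periaqueductal gray libraries had 12.3, 11.6, 14.7 and 16.6 in cKO, against 16.3, 20.8, 27.0 and 19.9 in cHet, and in substantia nigra 28.2, 23.3, 35.5 and 30.3 in cKO, against 37.6, 38.1, 42.7 and 49.0 in cHet. The groups were apart in substantia nigra and overlapped by 1 library in the other regions. Gjb1 fell by 0.57 (adjusted p = 0.0185), 0.59 (adjusted p = 0.0129) and 0.50 (adjusted p = 0.0173) on the log2 scale in these 3 regions, with SEs of 0.15, 0.14 and 0.12. In caudate putamen it had 8.81, 7.55, 9.91 and 10.6 in cKO, against 10.1, 10.4, 14.3 and 12.7 in cHet, and the ranges overlapped (log2 fold change -0.36 ± 0.14, adjusted p = 0.102). Calls were lost in hypothalamus without cKO 1, cKO 2 or cHet 3 (adjusted p up to 0.0651), in periaqueductal gray without cKO 2 (0.0522) and in substantia nigra without cKO 1 or cKO 2 (up to 0.0547). Gjc3, the gene of connexin 29, had log2 fold changes of -0.00 in hypothalamus, 0.15 in substantia nigra, 0.07 in periaqueductal gray and 0.16 in caudate putamen, and passed in none.

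Of 3 genes of signalling and adaptor proteins, Bcas1, a gene of newly formed myelinating oligodendrocytes, fell in hypothalamus (224 to 237 scaled CPM in cKO and 250 to 278 in cHet, log2 fold change -0.17 ± 0.05, adjusted p = 0.0258), and that call was lost without cKO 1, cKO 3, cHet 3 or cHet 4 (highest adjusted p 0.094). Gpr37, a receptor gene of the lineage, and Ppp1r14a, the gene of an inhibitor of myosin phosphatase, passed in no region. Their log2 fold changes were below 0 in all 4, between -0.18 and -0.02 for Gpr37 and between -0.41 and -0.22 for Ppp1r14a. Ppp1r14a passed in substantia nigra without cKO 3, with DESeq2 and without the low-count filter.

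None of the 4 transcription factors passed in any region by edgeR. An unadjusted p under 0.05 was found for 18 of the 29 genes in hypothalamus (27.2% of all genes), 15 in periaqueductal gray (24.8%), 15 in substantia nigra (25.3%) and 11 in caudate putamen (26.5%). Sox10, which marks the whole lineage, had 50.9 to 67.0 scaled CPM in cKO hypothalamus and 58.8 to 65.3 in cHet, and log2 fold changes between -0.05 and 0.12 over the regions. Olig1 lay between -0.21 and 0.01, Olig2 between -0.26 and -0.06 and Nkx6-2 between -0.32 and -0.11. Nkx6-2 did not overlap between the genotypes in periaqueductal gray (12.8 to 14.3 scaled CPM in cKO and 14.4 to 19.7 in cHet) or substantia nigra (20.9 to 29.1 in cKO and 29.9 to 30.9 in cHet), with adjusted p of 0.0814 and 0.0929. It passed without cHet 3 of periaqueductal gray and without cKO 3 of substantia nigra, and Olig1 passed in hypothalamus without cKO 4.

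Of the progenitor genes, Pdgfra rose in caudate putamen. It had 115 scaled CPM in each of the 4 cKO libraries, against 111, 97.7, 98.1 and 102 in cHet, with no overlap (log2 fold change 0.18 ± 0.06, adjusted p = 0.047). That call was lost without any single library other than cHet 1, and without the low-count filter (adjusted p up to 0.136). In the other regions its log2 fold changes were 0.07, 0.21 and 0.05 in hypothalamus, periaqueductal gray and substantia nigra, and in periaqueductal gray it passed without cKO 3, with DESeq2 and with library totals alone. Cspg4 had log2 fold changes between -0.27 and 0.11 and passed in no region, though it passed without cKO 2 of periaqueductal gray. In substantia nigra its groups did not overlap.

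The share of single genes within the myelin transcripts shows the unequal change without the scaling between libraries. Mbp made up 43.0 to 45.2% of the summed level of the 29 genes in cKO hypothalamus and 39.6 to 41.4% in cHet. The shares were 44.4 to 45.8% in cKO and 40.7 to 43.3% in cHet in periaqueductal gray. They were 44.6 to 45.3% in cKO and 41.1 to 42.1% in cHet in caudate putamen, and 46.0 to 47.4% in cKO and 42.2 to 43.6% in cHet in substantia nigra. The genotypes did not overlap in any region.

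Set against Mbp in the same library, Trf stood at 7.29 ± 0.88 tags per 100 Mbp tags in cKO hypothalamus and 12.4 ± 0.93 in cHet (SD, n = 4 each). It stood at 8.49 ± 0.47 in cKO and 14.5 ± 0.51 in cHet in periaqueductal gray, 7.86 ± 0.67 in cKO and 12.9 ± 0.58 in cHet in caudate putamen, and 9.24 ± 0.96 in cKO and 15.4 ± 0.87 in cHet in substantia nigra. Mobp stood at 22.3 to 24.7 per 100 Mbp tags on average in the cKO groups and 29.04 to 32.7 in the cHet groups. The ratios of Trf and of Mobp did not overlap between genotypes in any of the 4 regions. Opalin stood at 0.93 ± 0.05 per 100 Mbp tags in cKO hypothalamus and 0.91 ± 0.08 in cHet, and Mog at 4.86 ± 0.34 in cKO and 5.19 ± 0.43 in cHet, with overlap. Tspan2 and Gjc3 were wholly higher in cKO in periaqueductal gray and substantia nigra and overlapped in hypothalamus and caudate putamen. In substantia nigra Tspan2 stood at 6.83 to 8.15 in cKO and 5.71 to 6.78 in cHet. Gjc3 stood there at 1.32 to 1.52 in cKO and 1.17 to 1.28 in cHet. These ratios were formed after the values were seen and carry no test. A ratio within a library does not depend on the scaling between libraries, and these ratios show unequal change among the genes.

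**Figure D4:**
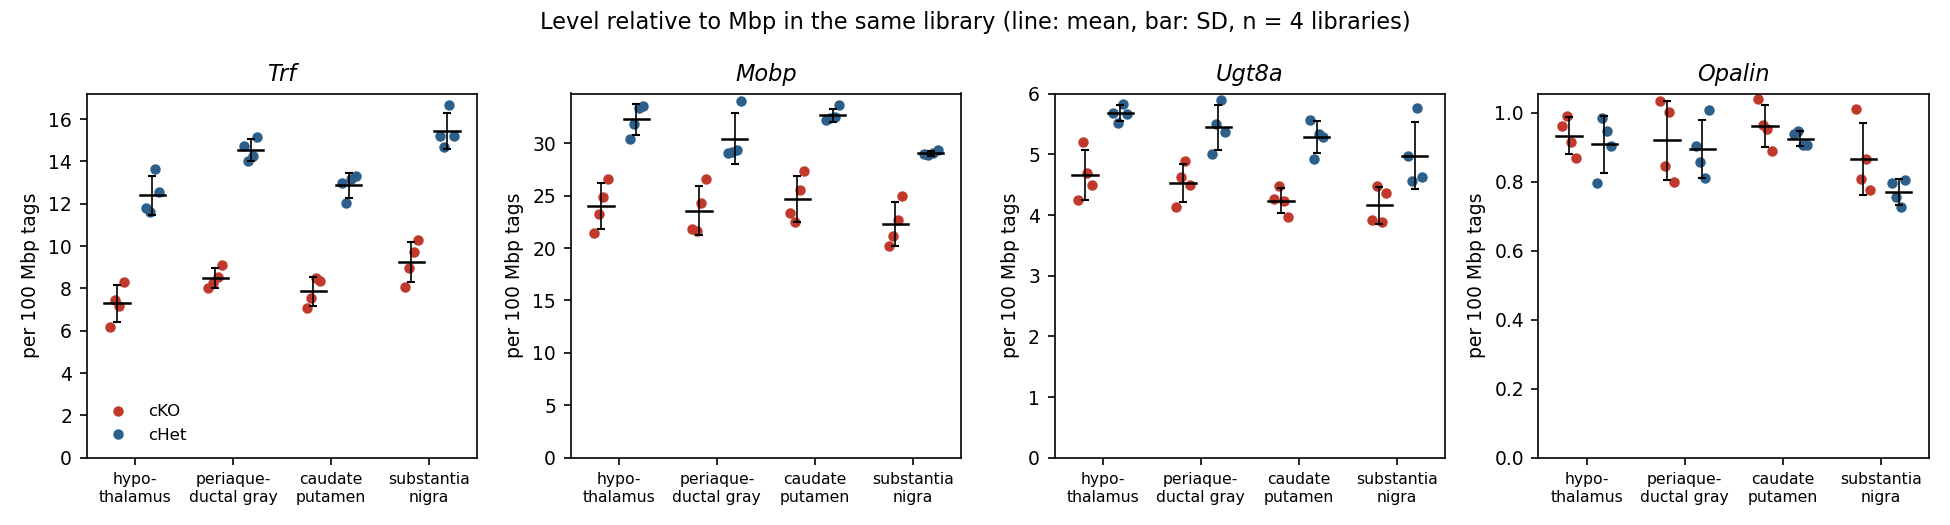
Tags of Trf, Mobp, Ugt8a and Opalin per 100 Mbp tags in each brain region library, cKO left of cHet, with 4 libraries per group, the mean as a line and the SD as a bar, on axes that start at 0. For Trf the cKO libraries lie between 6.19 and 10.26 and the cHet libraries between 11.6 and 16.7, while Opalin overlaps in every region.

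Libraries of the same genotype and replicate number deviated together across the regions in 19 of 48 pairs (r over 0.1, median 0.0903), against 1 of 144 pairs with different numbers (median -0.0298). The labels do not say whether such libraries come from the same animal. With the counts of a genotype and replicate number summed over the regions, 15 of the 29 genes fell and 0 rose (13.4% of all genes fell). Trf fell by 0.86 on the log2 scale (SE 0.10, adjusted p = 0.000256) and Gjb1 by 0.56 (adjusted p = 0.00446), while Mbp stood at -0.11 (adjusted p = 0.222), Sox10 at -0.04 and Opalin at -0.01. A fit of all 32 libraries as separate samples takes no account of shared numbers, so its p-values may be too small. In that fit 18 fell and 2 rose (19.6% of all genes fell and 19.4% rose), with a median log2 fold change of -0.16. The 2 that rose there were Tspan2 (0.16, adjusted p = 0.00384) and Pdgfra (0.13, adjusted p = 0.00385). Neither passed on the summed counts (adjusted p = 0.13 and 0.128), and nor did Mal (0.164), Cldn11 (0.0518) and Olig2 (0.168). In the test of whether the genotype effect differs between regions, 0 of the 29 passed (0.318% of all genes did), the lowest adjusted p being 0.635 for Mag. DESeq2 called 0 as well, and 0 had an unadjusted p under 0.05 (8.7% of all genes did). The calls made in 1 region and not in another are therefore not shown to differ between regions.

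Of 35 other genes of mature oligodendrocytes, 16 fell and 1 rose in hypothalamus, 14 fell and 1 rose in periaqueductal gray, 6 fell and 2 rose in caudate putamen, and 12 fell and 1 rose in substantia nigra. Of all genes tested, 6.42% fell and 5.57% rose in hypothalamus, and 5.39% and 4.33% in periaqueductal gray. In caudate putamen 5.06% fell and 5.32% rose, and in substantia nigra 5.46% and 4.35%. These shares also stand beside the brain region counts of the lists below. Cryab, the gene of a small heat shock protein, fell in all 4 by 0.74, 0.60, 0.58 and 0.59 on the log2 scale. Klk6, the gene of a protease of mature oligodendrocytes, fell by 0.80 in periaqueductal gray and 0.78 in substantia nigra. Anln fell in hypothalamus (-0.62) and caudate putamen (-0.56), Gamt, an enzyme gene of creatine synthesis, in hypothalamus (-0.57), Hapln2, a gene of the matrix at nodes of Ranvier, in periaqueductal gray (-0.67), and Cntn2, an adhesion gene of the juxtaparanode, in caudate putamen (-0.53) and substantia nigra (-0.75). The median of the 35 was -0.29 in hypothalamus, -0.27 in substantia nigra, -0.20 in periaqueductal gray and -0.09 in caudate putamen.

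Of 20 genes of sterol and myelin lipid synthesis, 13 fell in hypothalamus, 13 in substantia nigra, 14 in periaqueductal gray and 8 in caudate putamen, and 0 rose in any. Idi1, of the isoprenoid step, fell by 0.67, 0.57, 0.52 and 0.50 on the log2 scale in the 4 regions, and Hmgcs1, of the first steps of the pathway, by 0.42, 0.43, 0.41 and 0.46. Neurons and astrocytes make sterols too, and the list is not limited to oligodendrocytes. Of 22 other genes of progenitors and committed cells, 2 fell and 2 rose in hypothalamus, periaqueductal gray and substantia nigra each, and 1 fell and 0 rose in caudate putamen. Gpr17, a receptor gene of cells about to mature, fell in all 4 regions by 0.30 to 0.41, while Itpr2, a calcium channel gene of newly formed oligodendrocytes, rose in hypothalamus (0.28), periaqueductal gray (0.43) and substantia nigra (0.36).

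Markers of other cells moved as well. Of 15 endothelial and pericyte markers, 8 fell in hypothalamus, 6 in substantia nigra, 5 in periaqueductal gray and 4 in caudate putamen, and 0 rose. Their summed level was 180 to 211 scaled CPM in cKO hypothalamus and 237 to 275 in cHet, 174 to 230 in cKO and 245 to 297 in cHet in periaqueductal gray, 245 to 298 in cKO and 323 to 374 in cHet in caudate putamen, and 265 to 297 in cKO and 342 to 392.2 in cHet in substantia nigra. The sums did not overlap between genotypes in any region, and Rgs5, a pericyte gene, fell by 0.73 to 0.80 on the log2 scale. Of 10 fibroblast and meningeal markers, 5 fell in hypothalamus and 3 in substantia nigra, with sums of 136 to 216 scaled CPM in cKO and 220 to 377 in cHet hypothalamus. In periaqueductal gray and caudate putamen 0 of these markers changed. The part of the vessel and meningeal markers in the falls of Apod, Enpp2 and the other genes was not tested.

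Of 14 astrocyte markers, 4 fell and 2 rose in hypothalamus, 2 fell and 2 rose in periaqueductal gray, 3 fell and 0 rose in caudate putamen, and 0 fell and 1 rose in substantia nigra. Aqp4, the water channel of astrocyte endfeet, fell by 0.67, 0.36 and 0.45 in hypothalamus, periaqueductal gray and caudate putamen. Of 12 microglia markers, 0 changed in hypothalamus and periaqueductal gray, 1 (Ctss) rose in caudate putamen, and 1 fell and 1 rose in substantia nigra. Of 14 neuronal markers, 1 fell and 1 rose in hypothalamus, 3 fell and 1 rose in periaqueductal gray, 4 fell in caudate putamen and 2 fell in substantia nigra, and Nefm, a neurofilament gene of large axons, was among those that fell in each region (by 0.26, 0.46, 0.34 and 0.34). Of 10 Schwann cell markers, 0 changed in hypothalamus, Scn7a rose in periaqueductal gray and Plekha4 rose in caudate putamen, and Foxd3 was listed at 0 in 7 of the 8 region groups. Of choroid plexus markers, 1, Otx2, rose in periaqueductal gray. Of pituicyte markers, Scn7a and Vcan rose in periaqueductal gray and Crym in caudate putamen, and of hormone cell markers Pomc fell in hypothalamus (log2 fold change -0.78).

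Across the 32 brain libraries, after the mean of each region was subtracted, the 10 other genes most like the mean of the 29 were Prr18, Tmem88b, Tmbim1, Cd82, Pip4k2a, Pppde2, Plekhb1, Cmtm5, Gprc5b and Shisa4. Pearson's r was 0.944 for Prr18 and 0.910 for Shisa4, over 32 libraries that share their regions and genotypes. Plekhb1 and Tmem88b are among the 35 other genes of mature oligodendrocytes. Within the 29, r with their own mean was highest for Fa2h (0.974) and Mobp (0.951), and it was 0.08 for Tspan2, 0.09 for Cspg4 and -0.51 for Pdgfra.

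The pituitary consists of hormone-producing cells and a neural lobe with axons of the hypothalamus. Levels of the myelin genes were low there, and 17 of the 29 passed the filter on low counts. Mbp had 64.5, 35.6 and 28.5 scaled CPM in cKO, against 127, 90.9 and 68.9 in cHet, and Mobp had 10.7, 2.20 and 3.02 in cKO (23, 5 and 9 tags), against 23.3, 23.6 and 14.0 in cHet (47, 39 and 40 tags). All cKO libraries were below all cHet libraries for both. The log2 fold changes were -1.16 ± 0.27 for Mbp and -1.95 ± 0.47 for Mobp, each with an adjusted p of 0.285, and 0 of the 17 were called by edgeR or by DESeq2 (0.00815% of all genes were called by edgeR), while 4 had an unadjusted p under 0.05 (6.55% of all genes did). Libraries with the same replicate number deviated together here, and with the number as a block 2 of the 17 fell (0.139% of all genes fell): Mbp by 1.18 (adjusted p = 0.000654) and Mobp by 2.05 on the log2 scale (adjusted p = 0.0322). These 2 were also called without cKO 1. Rn45s, the gene of the ribosomal RNA precursor, took 32.6, 30.0 and 15.4% of the tags in cKO, against 37.8, 40.8 and 25.6% in cHet, and was lower in the cKO library of each number. The scaling factors were 0.895, 0.909 and 1.11 in cKO, against 0.761, 0.737 and 0.921 in cHet, and were higher in the cKO library of each number. The part of these differences between libraries in the values of Mbp and Mobp was not tested. Cnp (17.4 to 19.498 scaled CPM in cKO and 20.99 to 45.7 in cHet), Ppp1r14a and Olig2 did not overlap either. Olig2 had 0, 0 and 1 tags in cKO, against 3, 3 and 1 in cHet, and did not pass the filter on low counts. The 5 genes that lay wholly lower in cKO were counted over all 29, while 6.02% of genes tested did. Trf had 22.0 to 31.2 in cKO and 17.0 to 30.1 in cHet. Markers of pituicytes, the glia of the neural lobe, summed to 114 to 170 scaled CPM in cKO and 95.2 to 128 in cHet. The part of these markers in the values of Mbp and Mobp was not tested. Of the hormone cell markers, Lhb fell (log2 fold change -1.70), and no gene of the other lists was called.

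The TRAP RNA of the newborn brain comes from tagged ribosomes of chosen cells, and the names of its tables hold Gad2. Which cells held the transcripts of the 29 genes here was not tested, and the values do not describe the whole newborn brain. In this RNA, Mbp had 35.1 to 42.4 scaled CPM in cKO and 35.6 to 43.3 in cHet. Per length of transcript, Cnp stood above Mbp in each library. Cnp had 6.77 to 8.20 RPKM in cKO and 6.62 to 9.51 in cHet, against 4.12 to 5.09 and 4.40 to 5.22 for Mbp. Opalin was listed at 0 in all 12 libraries. Mobp, Mal, Gjb1, Gjc3, Fa2h and Aspa stayed under 1 scaled CPM in each library, and 20 of the 29 genes passed the filter. None of them passed the test (0.0307% of all genes did), 0 had an unadjusted p under 0.05 (7.44% of all genes did) and DESeq2 called 0. The lowest adjusted p were those of Trf and Car2 (0.69 each). Trf had 7.96, 7.21, 7.05, 8.72, 8.39 and 9.48 in cKO, against 11.3, 10.25, 6.55, 9.24, 13.4 and 9.41 in cHet (log2 fold change -0.29 ± 0.14). Car2 had 4.20, 4.38, 3.52, 5.81, 3.21 and 4.22 in cKO, against 2.78, 3.02, 3.96, 3.95, 3.56 and 2.39 in cHet (log2 fold change 0.37 ± 0.19). Both overlapped between genotypes, and 0 of the 29 genes had groups apart (0.315% of genes tested lay wholly lower in cKO). Each list of cell markers had 0 genes called here as well.

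The primary neuron cultures held transcripts of progenitor genes and of some sheath genes. The labels do not give the make-up of these cultures, and which of their cells held the transcripts was not tested. Both progenitor genes together averaged 196 scaled CPM in Nova1 KO + Impact neurons, 190 in Nova1 KO and 208 in WT, and the 11 sheath genes 139, 144 and 159 in the same order of groups. Pdgfra had 147 ± 4.25 scaled CPM in Nova1 KO + Impact neurons, 148 ± 7.94 in Nova1 KO and 166 ± 12.2 in WT (SD, n = 4 each), and Olig2 had 34.2 ± 2.20, 31.4 ± 2.68 and 31.9 ± 2.70 in that order. Of the sheath genes, Tspan2 had 52.7 ± 3.98, 57.3 ± 5.93 and 56.3 ± 3.59 scaled CPM, Cnp 31.97 ± 4.84, 33.3 ± 4.23 and 37.7 ± 5.76, and Mbp 28.2 ± 4.005, 29.1 ± 6.33 and 36.9 ± 9.27, while Mobp, Mal and Opalin averaged under 0.2 in each group. Of the 29 genes 23 passed the filter.

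Between Nova1 KO and WT neurons, 0 of the 23 passed the test (0.722% of all genes did), 7 had an unadjusted p under 0.05 (11% of all genes did), and DESeq2 called 0. The 2 of lowest adjusted p were Pdgfra and Bcas1. Pdgfra had 137, 155, 146 and 152 scaled CPM in Nova1 KO, against 167, 154, 182 and 160 in WT, with overlap of single libraries (log2 fold change -0.17 ± 0.05, adjusted p = 0.193). Bcas1 had 17.7, 25.9, 26.6 and 38.7 in Nova1 KO, against 34.6, 40.2, 40.1 and 66.3 in WT, and was lower in the Nova1 KO library of each replicate number (log2 fold change -0.73 ± 0.24, adjusted p = 0.214). Libraries with the same number deviated together in these cultures. With the number as a block, 6 of the 23 fell (3.3% of all genes fell): Bcas1 by 0.73 (adjusted p = 1.07e-07), Mag by 1.13 (adjusted p = 0.00214), Mbp by 0.33 (adjusted p = 0.00383), Sox10 by 0.32 (adjusted p = 0.00856), Pdgfra by 0.17 (adjusted p = 0.0259) and Fa2h by 0.70 (adjusted p = 0.0437) on the log2 scale. Mag rested on 8 to 47 tags per Nova1 KO library and 47 to 111 per WT library.

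Between Nova1 KO + Impact and WT neurons, 0 of the 23 passed (0.378% of all genes did), 9 had an unadjusted p under 0.05 (8.48% of all genes did), and DESeq2 called 0. Pdgfra had 149, 144, 144 and 153 scaled CPM in Nova1 KO + Impact, against 167, 154, 182 and 160 in WT, without overlap (log2 fold change -0.17 ± 0.05, adjusted p = 0.282). Mag had 0.677, 1.15, 1.69 and 2.18 in Nova1 KO + Impact, against 1.79, 3.04, 3.59 and 3.80 in WT, with overlap (log2 fold change -1.10 ± 0.39, adjusted p = 0.395). With the number as a block, 7 fell (1.97% of all genes fell), which were Bcas1, Mbp, Mag, Cldn11, Cnp, Pdgfra and Sox10. This comparison and the one before share their WT libraries. Between Nova1 KO + Impact and Nova1 KO neurons, 0 of the 23 passed (0.00674% of all genes did), 4 had an unadjusted p under 0.05 (3.11% of all genes did), and DESeq2 and the block called 0 (0.182% of all genes with the block). Pmp22 had 15.4, 15.7, 12.7 and 13.8 in Nova1 KO + Impact, against 11.8, 11.97, 10.8 and 10.7 in Nova1 KO, without overlap (log2 fold change 0.34 ± 0.09, adjusted p = 1.00). Olig1 had the next lowest unadjusted p, with 57.6 to 64.0 in Nova1 KO + Impact and 44.3 to 56.8 in Nova1 KO. Among the lists of other genes, Sox6, a factor of progenitors, fell in Nova1 KO against WT (-0.38), as did the astrocyte gene Gja1 (-0.46) and the pericyte gene Pdgfrb (-0.69), while the pericyte gene Rgs5 (1.87) and the sterol gene Fdft1 (0.23) rose. In Nova1 KO + Impact against WT, Gfap rose (1.51) and Gja1 (-0.38) and Pdgfrb (-1.07) fell, and 0 genes of these lists were called between Nova1 KO + Impact and Nova1 KO.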

How the data were processed

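Poly(A) RNA-seq and TRAP libraries from 62 mouse samples in 15 groups were used as deposited. Each table gives the authors' tag numbers and RPKM for 23038 genes. The deposited tag numbers were whole counts in 6 tables (pituitary) and estimated counts, fractional in 4.56 to 18.8% of genes, in 56, and were rounded. The deposited RPKM equalled tags scaled by exon length and library total. The build mm10 and edgeR are per the submitters' processing notes, and for the aligner, the counter and the gene models the sources used here give nothing. The 29 genes, the other gene lists and the tests were chosen with earlier results of these data known.

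Groups follow the labels. Comparisons used edgeR 4.0.16 (R 4.3.3), with trimmed mean of M values scaling, filterByExpr (minimum count 10, minimum total 15), the quasi-likelihood F test and Benjamini-Hochberg adjustment over all genes tested, with a threshold of 0.05. Each tissue was fitted alone, the 12 neuron libraries together, and the 32 brain region libraries together for the average, the interaction and the differences between cHet regions. The script was tested on simulated data. DESeq2 1.42.0, other scaling, no low-count filter, the replicate number as a block and the omission of each library were alternatives. Same-numbered libraries deviated together in pituitary (3 of 3 pairs, r of 0.137 to 0.144) and neurons (12 of 12 pairs), so the numbers, taken from the labels, were treated as pairs there and not between cKO and cHet of a brain region or TRAP. For the average over regions, the block was replaced by counts summed per genotype and number. All 29 genes are accounted for. Values of every library are given for genes called in 3 or more genotype comparisons and for the 2 of lowest adjusted p in each. Mbp and the gene ratios were added after their values were seen. Overlapping genes cannot be told apart where counting did not use strand, on which the sources are silent. Some results on single genes of the other lists are not reported here.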

Additional observations from a re-analysis of the deposited data

Results flagged for a closer look

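In 13 of 340 groups of libraries checked, 1 library stood far from the rest, by the gap to its nearest neighbour over the group's range (Dixon's criterion). Chance gives about 1 such group in 20. In substantia nigra, Mog had 980 scaled CPM in cKO 3 (others 814 to 831), Fa2h had 383 in cKO 3 (others 301 to 312), and Olig1 had 324 in cHet 4 (others 279 to 287). In the other regions, Mag had 790 in caudate putamen cKO 2 (others 866 to 872), Ermn had 102 in periaqueductal gray cHet 1 (others 123 to 125), Pdgfra had 93.2 in periaqueductal gray cHet 2 (others 106 to 107), and Gjc3 had 60.7 in hypothalamus cHet 2 (others 70.6 to 72.4). In Nova1 KO neurons, Fa2h had 1.97 in library 3 (others 1.40 to 1.48), Sox10 had 24.7 in library 4 (others 17.0 to 17.9), and library 1 had 44.3 for Olig1 (others 55.3 to 56.8) and 27.4 for Olig2 (others 32.5 to 32.9). In TRAP, Apod had 8.95 in cKO 5 (others 6.04 to 6.93) and Gpr37 had 3.56 in cHet 5 (others 5.07 to 5.44).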

How the results depend on the processing

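No result reversed under any alternative. With the replicate number as a block, 11 genes were called in caudate putamen (2 rose and 9 fell, beside 12.3% of all genes), 2 in pituitary, 6 in Nova1 KO against WT and 7 in Nova1 KO + Impact against WT neurons. Within each brain region, 0 of 4 same-numbered cKO and cHet pairs had an r over 0.1, and the number was not treated as a pairing there. The block gave 14 calls in hypothalamus, 11 in periaqueductal gray, 9 in substantia nigra and 15 for the average, where 13.4% of all genes fell. Without the low-count filter, 2 genes were called in pituitary. The cause of these moves was not tested. With single libraries left out, calls numbered 9 to 16 in hypothalamus, 5 to 10 in periaqueductal gray, 2 to 7 in caudate putamen, 3 to 10 in substantia nigra, 0 to 2 in pituitary, 18 to 21 for the average, and 0 in TRAP, neurons and the interaction. Between cHet regions they numbered 29 for substantia nigra against each other region, 25 to 27 for periaqueductal gray against hypothalamus, 21 to 25 for periaqueductal gray against caudate putamen and 13 to 18 for hypothalamus against caudate putamen. DESeq2 called 12 each in hypothalamus and substantia nigra, 9 in periaqueductal gray and 5 in caudate putamen. Shares of all genes called are not given for the other block fits, DESeq2, the unfiltered fit or the omissions. Those counts are set only beside the main counts of the same genes. In the average, Mag and Olig2 lost their calls under many omissions. Among the alternatives, the adjusted p reached 0.0763 for Mag, and 0.168 for Olig2 on the counts summed per genotype and number. Depth limits pituitary most, with 2.24 to 3.10 M tags.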
